A study of Mus musculus with 4 samples.

Results

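Mt1, Mt2 and Mt3 are the 3 metallothionein genes that were above 0 in every region of every mouse. They were taken by name and stand for 3 of 22376 genes in the deposited tables. Mt4, the remaining metallothionein of the same cluster, had 7 UMIs in all, in 4 of 47 columns, and was not compared. On a Visium array, barcoded oligonucleotides in discs 55 μm wide bind the polyadenylated RNA of the tissue above, and transcripts are counted as unique molecular identifiers (UMIs). Sections were cut at 10 μm and came from 8 mice of the genotype DAT (iCre/iCre), in which the dopamine transporter gene drives Cre recombinase, so that a Cre-dependent virus is expressed in dopamine neurons. Male GqCNO (n = 3) and GqVeh mice (n = 3), aged 3 to 4 months, had received a conditional AAV coding for hM3Dq(Gq)-mCherry, an activating designer receptor, on both sides of the midbrain. GqCNO mice then drank clozapine-N-oxide (CNO), the ligand of that receptor, at 300 mg/L with 2% sucrose for 1 week, whereas GqVeh mice drank 2% sucrose alone. CNO alone mice (n = 2) drank CNO with sucrose and carried no virus. The arrays that hold them carry the same age label of 3 to 4 months. All mice were single housed with a running wheel. Each mouse gave a midbrain and a striatal section, and 4 mice shared an array, so that array pair 1 held GqCNO 801 and 804, GqVeh 802 and CNO alone C2W2, and array pair 2 held GqCNO 781, GqVeh 784 and 785 and CNO alone C1W7.

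The 6 regions were the substantia nigra (SN), ventral tegmental area (VTA) and thalamus (TH) on midbrain arrays, and the caudate putamen (CP), lateral septal complex (LSX) and white matter (WM) on striatal arrays. A level below is the number of UMIs of a gene per 10000 UMIs of all genes in that region of that mouse. Depth per mouse was lowest in the SN (7779 to 71906 UMIs in 1 to 7 discs). It was 25808 to 350222 UMIs in the VTA (2 to 49 discs) and 4300381 to 7977003 in the CP (357 to 560 discs). The TH held 80837 to 444790 UMIs in 7 mice, since GqCNO 801 has no TH column, the LSX 80525 to 1354667 and the WM 119422 to 405313. Summed over all columns, Mt1 had 59686 UMIs, Mt2 had 11463 and Mt3 had 56681, and the lowest single counts were 13, 2 and 7. A disc covers several cells, so that a level cannot tell more cells of a type from more RNA per cell. SN and VTA discs had been chosen for dopamine neuron somata, and discs rich in the astrocyte markers Gfap and Aldh1l1 or the microglia markers Aif1 and P2ry12 had been left out by the authors.

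Metallothioneins are small, cysteine-rich proteins that bind zinc and copper and also react with oxidants. Mt1 and Mt2 are expressed in most tissues and, in the brain, mainly in astrocytes. They are induced by metals through the transcription factor MTF1 and by glucocorticoids, oxidative stress and injury. Mt3, first described as a growth-inhibitory factor, is enriched in the brain, in astrocytes and in neurons, and responds far less to metals.

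The 3 genes lie in a row on the plus strand of chromosome 8 of mm10. Mt3 (ENSMUSG00000031760) spans chr8:94152607-94154148, Mt2 (ENSMUSG00000031762) spans chr8:94172618-94173567 and Mt1 (ENSMUSG00000031765) spans chr8:94178883-94180327. The intervals between them are 18469 bases from Mt3 to Mt2 and 5315 bases from Mt2 to Mt1. Their start regions are shown as background, since MTF1 binds the metal response element. That choice followed the calls between groups described below, which fell on Mt1 and Mt2 and not on Mt3. A link between those calls and these sequences was not tested. The RefSeq sequences (GRCm38.p6, plus strand) run from 250 bases before the start site used for each window to 30 after it. That site is the first base of the spans above for Mt2 and Mt3. For Mt1 it is base 94179089, which lies inside the span above, since the span begins at 94178883 and so reaches further 5′ than the site. Capitals mark the core of the metal response element, TGCACNC or TGCGCNC on either strand.
Mt1, chr8:94178839-94179118: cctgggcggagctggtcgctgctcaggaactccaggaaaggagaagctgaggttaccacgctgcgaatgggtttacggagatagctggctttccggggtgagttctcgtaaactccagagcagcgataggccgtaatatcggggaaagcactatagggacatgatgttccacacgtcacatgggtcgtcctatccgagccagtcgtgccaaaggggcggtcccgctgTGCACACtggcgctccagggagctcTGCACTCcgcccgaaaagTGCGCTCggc
Mt2, chr8:94172368-94172647: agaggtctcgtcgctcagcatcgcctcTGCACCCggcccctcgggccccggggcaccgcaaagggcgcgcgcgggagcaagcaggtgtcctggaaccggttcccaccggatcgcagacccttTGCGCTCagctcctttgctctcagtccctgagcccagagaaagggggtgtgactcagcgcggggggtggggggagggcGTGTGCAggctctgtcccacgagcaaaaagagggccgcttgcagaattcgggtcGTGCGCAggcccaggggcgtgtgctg
Mt3, chr8:94152357-94152636: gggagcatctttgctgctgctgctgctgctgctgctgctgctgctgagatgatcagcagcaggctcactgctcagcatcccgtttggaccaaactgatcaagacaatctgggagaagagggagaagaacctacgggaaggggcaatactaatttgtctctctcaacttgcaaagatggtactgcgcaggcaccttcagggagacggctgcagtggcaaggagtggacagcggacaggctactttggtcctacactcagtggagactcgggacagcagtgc
The counts for Mt1 depend on that choice of start, and elements more than 50 bases after it were not searched. In windows reaching 50 bases after the start site, Mt2 held 4 such cores, Mt1 held 3 and Mt3 held 1, which begins 28 bases after the start and runs past the printed end. Of 32851 windows of that length, 25.7% held at least 1 core, 1.97% at least 3 and 0.517% at least 4. A match to the glucocorticoid response element occurred once, in the Mt1 window, 94 bases before the start used for that window, and 0.475% of all windows hold one. The Mt2 window also held TGACTCAGC, which matches the antioxidant response element core TGACNNNGC that 12.4% of windows hold. No window of the 3 genes held TATAAA, held by 13.6% of windows, or CACGTG, held by 7.15%. The windows end 50 bases after the start used, so that this does not show that a gene lacks either. No binding was measured, and a match of letters is a description only.

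In the 5 control mice, all 3 metallothioneins were lowest in the CP among the striatal regions. Mt1 was at 9.38 ± 1.98 UMIs per 10000 in the CP (SD, n = 5), 12.7 ± 2.2 in the LSX and 17.3 ± 3.7 in the WM. Mt2 was at 1.64 ± 0.27 in the CP, 3.09 ± 0.55 in the LSX and 3.52 ± 1.24 in the WM. Mt3 had another order, with 9.50 ± 2.16 in the CP, 15.1 ± 1.4 in the LSX and 12.8 ± 2.2 in the WM. Mt3 was higher in the LSX than in the WM in 7 of 8 mice, and Mt1 was higher in the WM than in the LSX in 7 of 8.

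With the mouse as a block in limma, the log2 level of Mt1 was lower in the CP than in the LSX by a difference of -0.45 (SE 0.10, adjusted p = 0.00359) and lower than in the WM by -0.88 (SE 0.10, adjusted p = 1.68e-06). Mt2 differed by -0.89 from the LSX (SE 0.17, adjusted p = 0.000807) and by -1.02 from the WM (SE 0.17, adjusted p = 0.000107). For Mt3 the CP differed by -0.69 from the LSX (SE 0.11, adjusted p = 9.18e-05) and by -0.45 from the WM (SE 0.11, adjusted p = 0.00251). So 3 of 3 members were lower in the CP in both comparisons, where 11.5% and 13.5% of 11238 genes were. Between the LSX and the WM, Mt1 was lower in the LSX (-0.43, SE 0.10, adjusted p = 0.00201), as 13.6% of genes were. Mt2 did not pass there (-0.13, 95% interval -0.49 to 0.23), nor did Mt3 (0.24, 95% interval 0.02 to 0.46, adjusted p = 0.0705). Mt2 passed between the LSX and the WM without GqVeh 784 (-0.40, adjusted p = 0.0102). The median gene was higher by 0.21 in the CP and by 0.29 in the LSX than in the WM, so that the 3 differences of the CP from the WM are larger still relative to that median. With TMM scaling the difference of Mt1 between the CP and the LSX no longer passed (-0.23, adjusted p = 0.120), beside a median gene at 0.12.

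**Figure D1:**
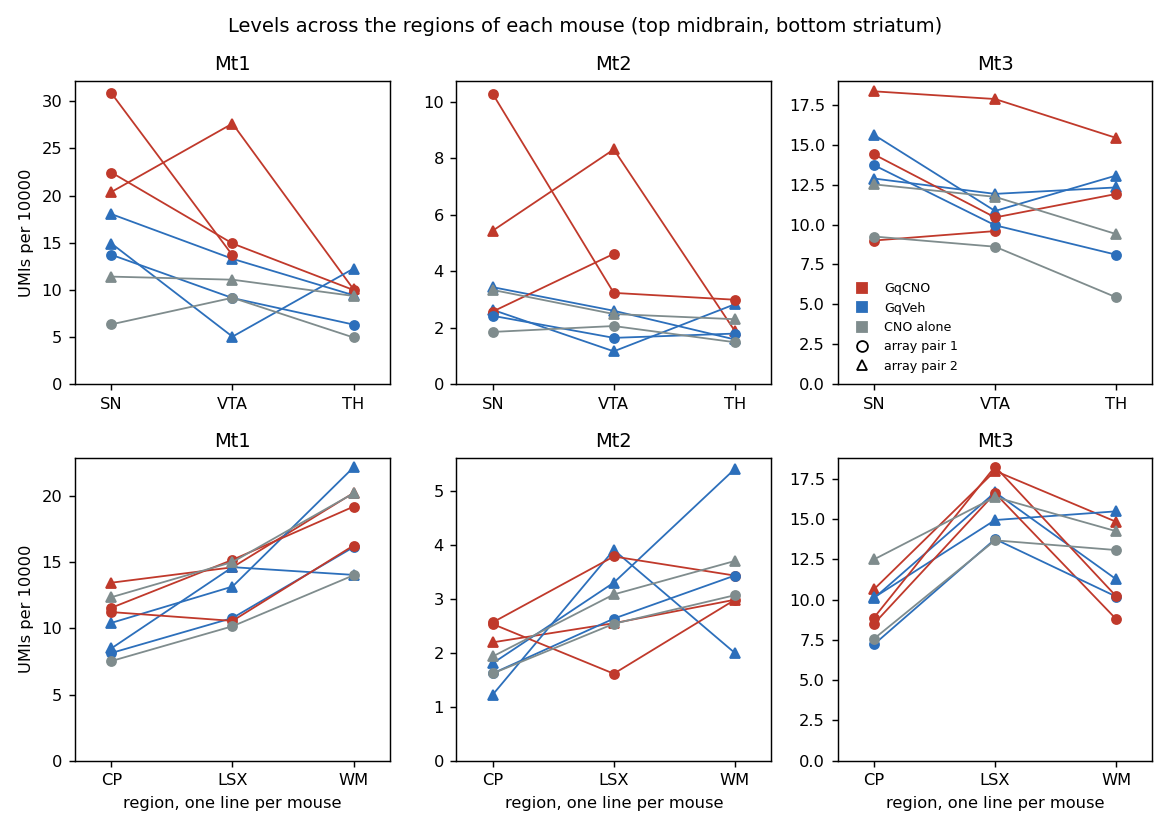
Level of Mt1, Mt2 and Mt3 (UMIs per 10000, linear axes from 0) across the regions of each mouse, with midbrain regions above and striatal regions below. Each line is 1 mouse, colour gives the group and the marker the array pair. In the lower row the lines rise from the CP to the LSX for Mt3 in all 8 mice, and from the CP to the WM for Mt1 in all 8.

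Among the midbrain regions of control mice, Mt1 was at 12.9 ± 4.4 UMIs per 10000 in the SN (SD, n = 5), 9.54 ± 3.04 in the VTA and 8.46 ± 2.87 in the TH. Mt2 was at 2.74 ± 0.66, 1.99 ± 0.60 and 2.00 ± 0.56 in the same regions, and Mt3 at 12.8 ± 2.3, 10.6 ± 1.4 and 9.67 ± 3.12. None of the 3 genes passed between any pair of midbrain regions. The differences nearest to passing were SN over TH for Mt1 (0.57, SE 0.22, adjusted p = 0.0703) and for Mt3 (0.43, SE 0.18, adjusted p = 0.0951). The call for Mt1 turned on GqVeh 785, without which it was 0.64 (adjusted p = 0.0284). Midbrain and striatal levels come from separate arrays and were not tested against each other. By the mean of the controls, Mt1 ran in the order WM, SN, LSX, VTA, CP and TH, and Mt2 in the order WM, LSX, SN, TH, VTA and CP. Mt3 ran in the order LSX, WM, SN, VTA, TH and CP. Neighbours in these orders overlapped in range for all 3 genes.

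**Figure D2:**
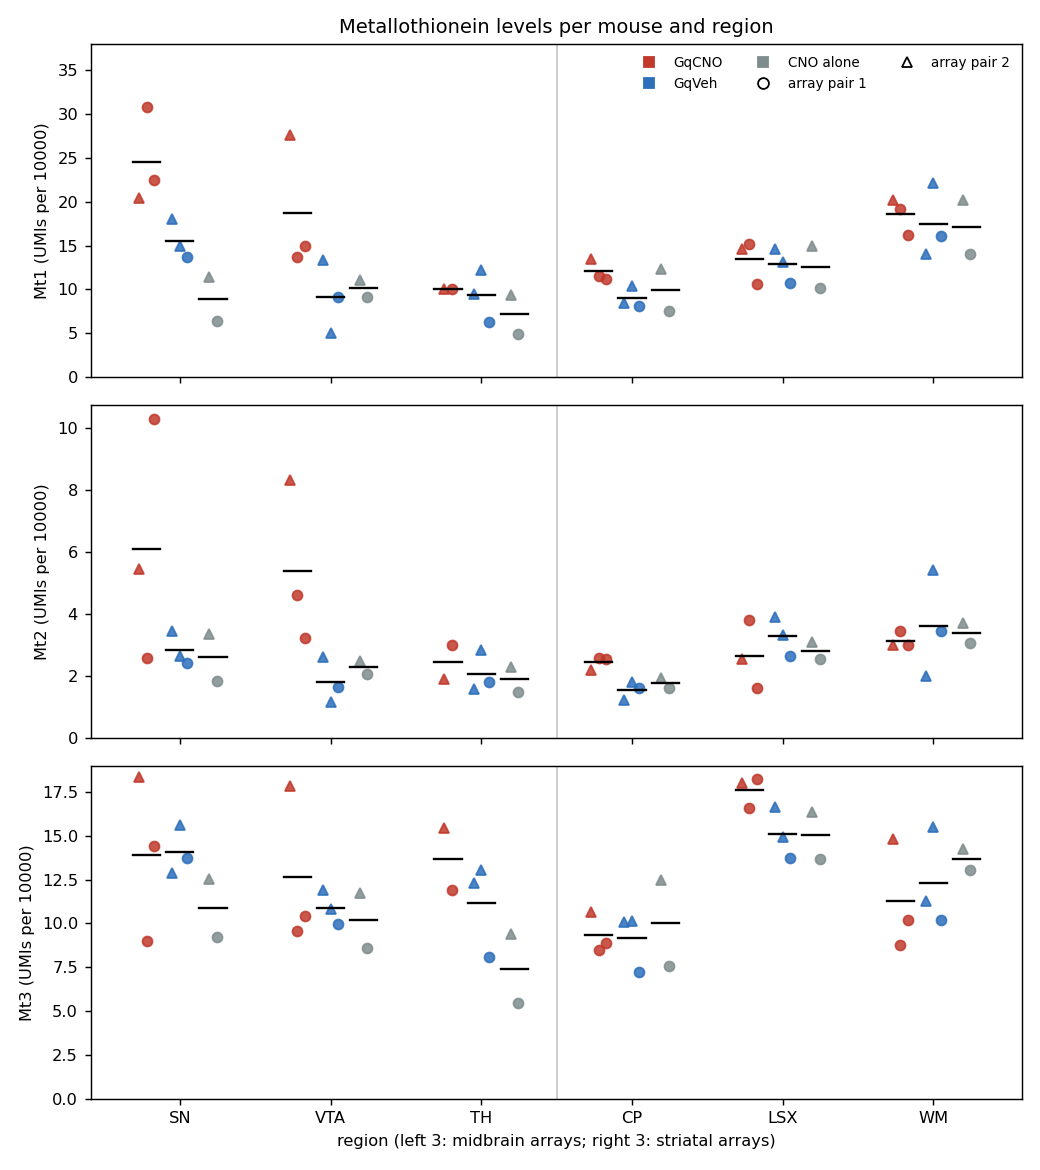
Level of Mt1, Mt2 and Mt3 per mouse (UMIs per 10000, linear axes from 0) in the 6 regions, with colour for the group, marker shape for the array pair and a black line at the group mean. The 3 GqCNO mice lie above all 5 controls for Mt1 in the SN and VTA and for Mt2 in the VTA and CP.

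In the VTA, Mt2 rose in GqCNO mice. It was at 8.31, 4.62 and 3.23 UMIs per 10000 in GqCNO 781, 801 and 804. The GqVeh mice 784, 785 and 802 were at 2.60, 1.16 and 1.64, and the CNO alone mice C1W7 and C2W2 at 2.48 and 2.06. All 3 GqCNO mice were above all 5 controls, and GqCNO 781 was the highest by far. The log2 difference against all controls was 1.19 (SE 0.28, 95% interval 0.61 to 1.76, limma adjusted p = 0.0246). Pair 1 alone gave 0.90 and pair 2 alone 1.83. The exact permutation test over the 56 splits of 8 mice gave its smallest possible p, 0.0179, which was 0.161 after adjustment over the 18 tests of 3 genes in 6 regions.

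Mt1 showed the same separation in the VTA. Its level was 27.6, 13.7 and 14.9 UMIs per 10000 in GqCNO 781, 801 and 804. It was 13.3, 5.04 and 9.13 in GqVeh 784, 785 and 802, and 11.1 and 9.16 in CNO alone C1W7 and C2W2. GqCNO 801 and GqVeh 784 were close, at 13.7 and 13.3. The log2 difference of 0.93 (SE 0.27, 95% interval 0.38 to 1.48) missed the threshold (adjusted p = 0.0951), with 0.62 within array pair 1 and 1.55 within array pair 2. Taking the array pair as a block, the differences of Mt1 and Mt2 were 1.02 (adjusted p = 0.0420) and 1.31 (adjusted p = 0.00970), and both passed.

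Mt3 overlapped between groups in the VTA. It was at 17.9, 9.59 and 10.4 UMIs per 10000 in GqCNO 781, 801 and 804, and between 8.61 and 11.9 in the controls. Its log2 difference was 0.20 (SE 0.22, 95% interval -0.26 to 0.65, adjusted p = 0.812).

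Thus 1 of 3 members was called higher in the VTA, where 1.2% of 6312 genes were, and 2 of 3 in the blocked fit, where 1.25% were. For 2 of 3 members every GqCNO mouse was above every control, as for 3.36% of genes. Mt1 and Mt2 also had an unadjusted limma p under 0.05 against both control groups (0.00233 and 0.000326 against GqVeh, 0.0259 and 0.00839 against CNO alone), as 2.33% of genes did upwards. Against GqVeh the difference of Mt2 was 1.31 (adjusted p = 0.0552) and against CNO alone 0.999 (adjusted p = 0.353). The call for Mt2 was lost with TMM scaling (1.16, adjusted p = 0.124), with an added constant of 0.1 (1.34, adjusted p = 0.0847) and without the filter on low values (1.19, adjusted p = 0.274). It was also lost without GqCNO 781 (0.85, adjusted p = 0.275), without GqCNO 801 (1.24, adjusted p = 0.0665) and without GqVeh 785 (1.05, adjusted p = 0.0715), whose VTA column held 3 UMIs of Mt2. Mt1 was called without GqVeh 784 (1.06, adjusted p = 0.0402).

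Markers of other cell types moved with these differences in the VTA. The summed level of 24 astrocyte markers ranged from 87.2 to 107 UMIs per 10000 in GqCNO mice and from 46.5 to 76.7 in controls. Of 22 tested, 2 rose and none fell, 16 had a positive difference, and the median was 0.25 beside -0.06 over all genes. The risers were Gfap (2.41, adjusted p = 0.000602), the astrocyte intermediate filament, and Aqp4 (1.42, adjusted p = 0.00788), the astrocyte water channel. The sum of 18 microglia markers was 39.0 to 104 in GqCNO mice and 5.20 to 31.2 in controls, and 7 of 16 tested rose, among them C1qb (2.27, adjusted p = 0.000697) and C1qa (3.06, adjusted p = 0.000894), which code for complement C1q, and Tyrobp (2.16, adjusted p = 0.00154), a microglial signalling adaptor. The sum of 12 neuron markers was 41.5 to 60.5 against 74.3 to 99.2, with 3 of 12 lower, and 6 of 9 dopamine neuron markers fell (median -1.40). All ependymal and choroid plexus markers together stayed at or below 1.74 and 0.586, with Ccdc153, Tmem212 and Folr1 at 0 in every mouse. Gfap and Aldh1l1 had served to leave out discs. Per 100 UMIs of the astrocyte markers, Mt2 ranged from 3.02 to 8.21 in GqCNO mice and from 2.18 to 3.41 in controls (log2 difference 0.87, exact permutation p = 0.0536, adjusted 0.321). The difference of Mt1 was 0.46 on that scale, and its groups overlapped, at 13.95 to 27.3 against 10.8 to 17.4 (exact permutation test, adjusted p = 0.450). These ratios were chosen after seeing the data, and the part of the other cell types was not tested.

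In the SN, Mt1 was higher in every GqCNO mouse than in every control, but no member was called against all controls. Mt1 was at 20.4, 30.9 and 22.4 UMIs per 10000 in GqCNO 781, 801 and 804. GqVeh 784, 785 and 802 were at 18.04, 14.9 and 13.7, and CNO alone C1W7 and C2W2 at 11.4 and 6.34. The 3 groups followed each other without overlap, and the share of all genes ordered in this way was not counted. By unadjusted limma p, Mt1 ranked at 30 of 6174 genes for GqVeh against CNO alone and at 349 for GqCNO against GqVeh. The difference from all controls thus also holds a difference between the 2 control groups. These columns are thin. GqCNO 781 and 801 gave 1 disc each and GqCNO 804 gave 5, beside 3 to 7 in the controls. GqCNO 801 had 24 UMIs of Mt1 among 7779, with an exact (Clopper-Pearson) 95% interval of 19.8 to 45.9 per 10000 for counting error alone. The log2 difference against all controls was 0.96 (SE 0.28, 95% interval 0.40 to 1.51, adjusted p = 0.0821), where pair 1 alone gave 1.44 and pair 2 alone 0.47. Its exact permutation p was 0.0357 (adjusted 0.161). In the SN 0.373% of 6174 genes were called higher, and every GqCNO mouse was above every control for 2.35%.

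Against CNO alone the difference of Mt1 passed (1.45, SE 0.35, adjusted p = 0.00773), as for 0.389% of genes, and against GqVeh it was 0.63 (unadjusted p = 0.0470, adjusted p = 0.806). Its unadjusted p was thus under 0.05 against both control groups, as for 1.04% of genes upwards. The comparison with CNO alone lost its call without GqCNO 801 (1.28, adjusted p = 0.0650), without GqCNO 804 (1.504, adjusted p = 0.113) and without C2W2 (1.05, adjusted p = 0.999). Against all controls Mt1 passed without GqCNO 781 (1.08, adjusted p = 0.0193) and without GqVeh 784 (1.09, adjusted p = 0.0123). With TMM scaling the difference was 0.61 (adjusted p = 0.722), beside a median gene at -0.27.

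Mt2 in the SN was at 5.44, 2.57 and 10.3 UMIs per 10000 in GqCNO 781, 801 and 804 and between 1.85 and 3.44 in the controls. GqCNO 801 lay within the controls, on 2 UMIs (95% interval 0.311 to 9.28 per 10000). The log2 difference was 0.87 (SE 0.43, 95% interval 0.02 to 1.72, adjusted p = 0.636). Mt3 was at 18.3, 8.999 and 14.4 in the GqCNO mice and between 9.25 and 15.6 in the controls, a log2 difference of 0.08 (95% interval -0.51 to 0.67) that turned to -0.26 with TMM scaling.

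Marker levels also differed in the SN, where GqCNO 781 and 801 were 1 disc each. The cells under a single disc cannot be told apart from the group in those mice. The microglia sum was 37.3 to 74.1 UMIs per 10000 in GqCNO mice, 21.9 to 54.1 in GqVeh and 5.29 to 6.68 in CNO alone, and C1qa (2.43, adjusted p = 6.67e-06) and C1qb (2.04, adjusted p = 0.000436) rose, 2 of 17 tested. The astrocyte sum overlapped, at 74.1 to 158 against 73.7 to 97.9, and Gfap (2.58, adjusted p = 2.6e-06) rose, 1 of 24 tested. The difference was positive for 16 of the 24, and the next by p, Slc1a2, was lower without a call (-1.21, adjusted p = 0.401). Of 4 blood genes tested 3 rose, while the blood sums overlapped, at 7.47 to 32.1 in GqCNO mice, 0.202 to 1.23 in GqVeh and 1.95 to 18.5 in CNO alone. Of 10 ependymal markers 6 were at 0 in all mice, Ccdc153 and Tmem212 among them, and of 10 choroid plexus markers 6, Ttr and Folr1 among them. Of 10 dopamine neuron markers tested 4 fell, Ddc (-2.17, limma adjusted p = 4.96e-06), of dopamine synthesis, the most by p. The ranges of Ddc overlapped, at 0 to 10.2 UMIs per 10000 in GqCNO mice and 4.29 to 16.6 in controls. Limma shares the spread across genes, so that such a p does not measure the spread of that gene alone between mice. Per 100 UMIs of the astrocyte markers, the difference of Mt1 in the SN was 0.58, and the ranges overlapped, at 17.0 to 27.5 in GqCNO mice and 8.60 to 18.4 in controls (exact permutation p = 0.0536, adjusted 0.321). The part of the other cell types was not tested.

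In the CP, the target of SN dopamine axons, limma called no gene against all controls, and edgeR called 1. The unadjusted limma p was under 0.05 for 161 genes that were higher and 239 that were lower. Mt2 was at 2.20, 2.57 and 2.53 UMIs per 10000 in GqCNO 781, 801 and 804. GqVeh 784, 785 and 802 were at 1.23, 1.81 and 1.62, and CNO alone C1W7 and C2W2 at 1.93 and 1.62. Each GqCNO mouse was above each control, and the lowest GqCNO and highest control values came from the same array pair. The log2 difference was 0.57 (SE 0.13, 95% interval 0.27 to 0.86, unadjusted p = 0.00134, adjusted p = 0.740), with 0.64 within array pair 1 and 0.42 within array pair 2. The exact permutation p was 0.0179, the smallest possible (adjusted 0.161). By unadjusted limma p, Mt2 ranked at 19 of 10813 genes, a rank that the adjusted p leaves without a call. The paper lists Mt2 among the genes raised in the striatum of these same mice, so that the rank is not independent of that listing. Each CP column held 762 to 1368 UMIs of Mt2, and the exact 95% counting intervals of GqCNO 781 (2.08 to 2.32 per 10000) and CNO alone C1W7 (1.81 to 2.07), the nearest mice of the groups, did not overlap.

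Mt1 in the CP overlapped between GqCNO and control mice over both array pairs, but not within either pair. Column labels hold C2 for all mice of pair 1 and C1 for all mice of pair 2. The array thus cannot be told apart from what that code marks, and its effect was not tested. It was at 13.4 UMIs per 10000 in GqCNO 781 of pair 2, beside 8.48 and 10.4 in GqVeh 784 and 785 and 12.3 in CNO alone C1W7. In pair 1 GqCNO 801 and 804 were at 11.5 and 11.2, beside 8.13 in GqVeh 802 and 7.53 in CNO alone C2W2. Within each pair the GqCNO mice were above the controls, while over both pairs C1W7 exceeded 801 and 804. The log2 difference was 0.38 (SE 0.16, 95% interval 0.03 to 0.73, adjusted p = 0.999), with 0.54 in pair 1 and 0.38 in pair 2. Mt3 did not separate the groups, at 10.6, 8.51 and 8.89 in GqCNO mice 781, 801 and 804 and between 7.22 and 12.5 in controls, with a log2 difference of -0.00 (95% interval -0.38 to 0.38).

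**Figure D3:**
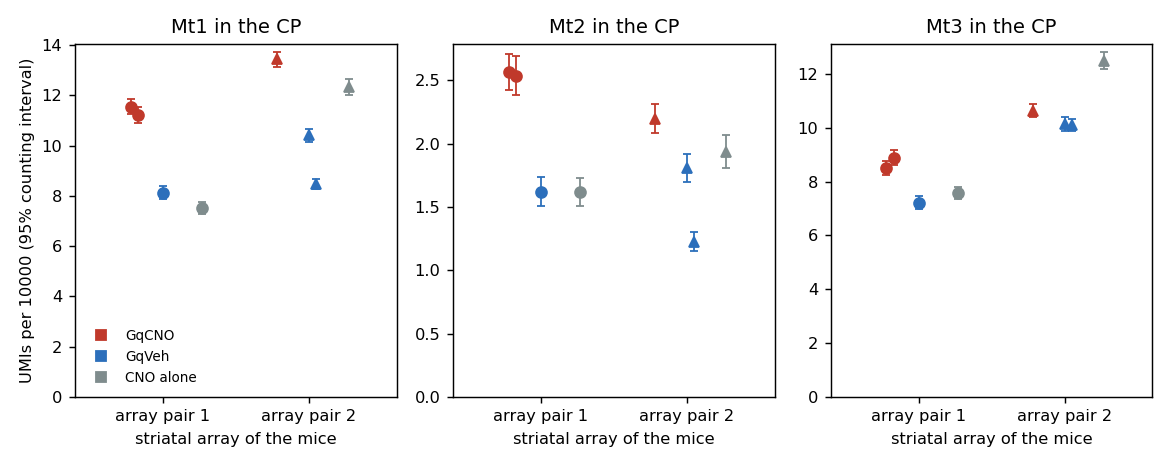
Level of Mt1, Mt2 and Mt3 in the CP (UMIs per 10000, linear axes from 0) by array pair, with exact 95% counting intervals. In each pair the GqCNO mice lie above the controls for Mt1 and Mt2, and for Mt3 the highest value is CNO alone C1W7 at 12.5.

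With the array pair as a block, Mt2 (0.55, SE 0.10, adjusted p = 0.0140) and Mt1 (0.48, SE 0.09, adjusted p = 0.02001) were called higher in the CP, where 0.222% of 10813 genes were. Without the block 0% were. Mt3 was at 0.13 in that fit (adjusted p = 0.668). For 1 of 3 members, Mt2, every GqCNO mouse was above every control, as for 1.43% of genes. Mt2 was also the 1 member past an unadjusted limma threshold of 0.05 against both control groups, as 0.277% of genes were upwards. Its limma difference was 0.65 against GqVeh (adjusted p = 0.562) and 0.44 against CNO alone (adjusted p = 1). The limma differences of Mt1 were 0.42 against GqVeh (adjusted p = 0.999) and 0.32 against CNO alone (adjusted p = 1). The last value rested on C2W2, without which it was -0.04.

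No cell type marker was called in the CP against all controls, in a fit that called 0 of 10813 genes. The astrocyte sum was 60.5 to 64.5 UMIs per 10000 in GqCNO mice and 54.8 to 62.8 in controls, and the microglia sum 8.02 to 9.62 against 7.55 to 8.93. None of 24 astrocyte, 18 microglia and 10 striatal projection neuron markers was called (medians 0.09, 0.08 and -0.02), and none of the 2 ependymal and 2 choroid plexus markers tested. The difference was positive for 21 of 24 astrocyte, 11 of 18 microglia and 4 of 10 striatal projection neuron markers, beside 5355 of 10813 genes. Per 100 UMIs of the astrocyte markers, Mt2 was at 3.63 to 4.04 in GqCNO mice and at 2.24 to 3.27 in controls, again without overlap (log2 difference 0.48, exact permutation p = 0.0357, adjusted 0.321). Blood genes had a sum of 11.97 to 14.4 in GqCNO mice and 5.23 to 12.6 in controls. With the array pair as a block 4 of 5 were called, where 0.222% of genes were called higher. With haemoglobin and mitochondria-encoded genes left out before rescaling, the difference of Mt2 was 0.56.

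**Figure D4:**
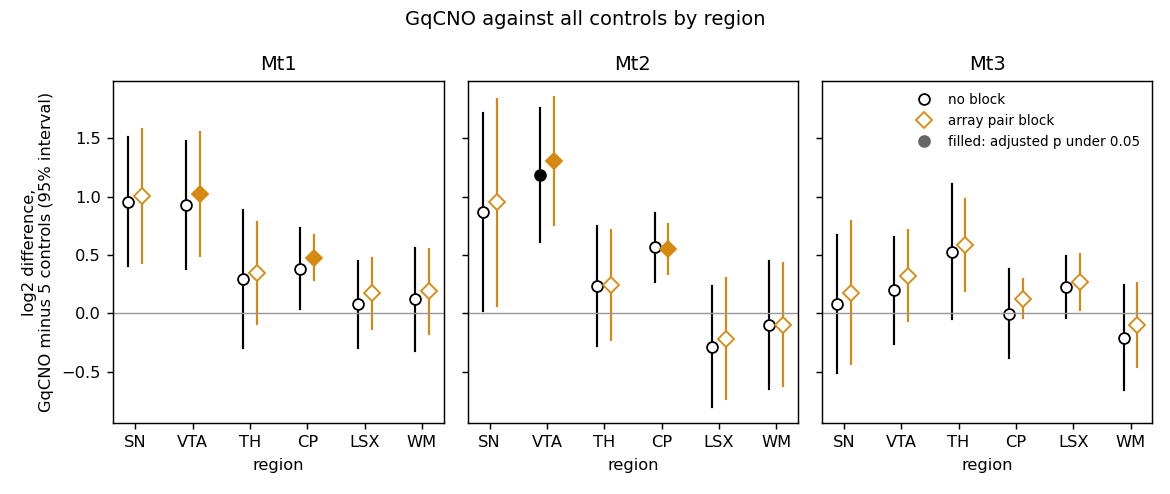
Log2 difference of Mt1, Mt2 and Mt3 between GqCNO and the 5 control mice in each region, with 95% intervals from limma, without a block (black) and blocked by array pair (orange). Filled markers passed an adjusted p under 0.05, as Mt2 in the VTA did without the block, while Mt1 and Mt2 in the VTA and the CP passed with it.

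In the TH, LSX and WM no member was called, where 0%, 0% and 0.0367% of 6399, 11036 and 10902 genes were higher. In the TH, Mt1 was at 10.1 and 9.98 UMIs per 10000 in GqCNO 781 and 804 and between 4.95 and 12.3 in controls (log2 difference 0.30, 95% interval -0.30 to 0.89). Mt2 differed there by 0.24 (95% interval -0.28 to 0.75) and Mt3 by 0.53 (95% interval -0.05 to 1.11). In the LSX the differences were 0.08 for Mt1 (95% interval -0.30 to 0.45), -0.28 for Mt2 (95% interval -0.80 to 0.24) and 0.23 for Mt3 (95% interval -0.04 to 0.50). LSX levels of Mt3 were 17.99, 16.6 and 18.3 in GqCNO 781, 801 and 804 against 13.7 to 16.7 in controls, with only 801 inside the control range. In the WM the differences were 0.12 for Mt1 (95% interval -0.32 to 0.56), -0.10 for Mt2 (95% interval -0.64 to 0.45) and -0.21 for Mt3 (95% interval -0.66 to 0.25). The interval for Mt2 in the TH reaches past the 0.57 of the CP, whereas those in the LSX and WM end below it. The CP estimate has its own interval, which overlaps that of the WM, so that this is no test between regions.

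A difference in response between regions was tested on the difference per mouse. For Mt2 the response in the CP was larger than in the LSX by 0.85 (SE 0.32, unadjusted p = 0.0274, adjusted p = 0.852) and larger than in the WM by 0.66 (SE 0.26, unadjusted p = 0.0263, adjusted p = 0.998). The response in the VTA was larger than in the TH by 1.01 in 7 mice (SE 0.43, unadjusted p = 0.0279, adjusted p = 0.437). None of the 3 genes passed in any of the 4 region pairs, and SN and VTA differed by 0.03 for Mt1 (95% interval -1.04 to 1.10).

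The members were also set against each other within a mouse, which cancels the total of the column. UMIs were not corrected for transcript length, so that only differences of a ratio between mice are read. In the VTA the ratio of Mt1 to Mt3 was 1.55, 1.43 and 1.43 in GqCNO 781, 801 and 804, above all controls, which ranged from 0.464 to 1.12. In the CP it was 1.26, 1.36 and 1.26, again above all controls, which ranged from 0.841 to 1.13. The log2 differences were 0.77 in the VTA (exact permutation p = 0.0357) and 0.38 in the CP (exact permutation p = 0.0179). In the SN the difference was 0.91 (exact permutation p = 0.0357), with overlap between 1.11 to 3.43 in GqCNO mice and 0.686 to 1.40 in controls. It was -0.24 in the TH, -0.15 in the LSX and 0.33 in the WM, with exact permutation p from 0.161 to 0.429. The ratio of Mt2 to Mt3 was higher by 1.18 in the VTA and 0.89 in the SN, without overlap in either region (exact permutation p = 0.0179 for each), and by 0.58 in the CP with overlap (exact permutation p = 0.0893). It was -0.26 in the TH, -0.52 in the LSX and 0.11 in the WM, with exact permutation p from 0.107 to 0.762. The lowest GqCNO ratio of Mt2 to Mt3 in the SN, 0.286 in GqCNO 801, came from 2 UMIs of Mt2 and 7 of Mt3. The highest control ratio there was 0.267, so that the separation in the SN rests on these few UMIs. Over the 18 ratios the smallest adjusted p was 0.107, so that none passed. Mt1 to Mt2 overlapped between groups in all 6 regions, with log2 differences from -0.42 in the VTA to 0.37 in the LSX.

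**Figure D5:**
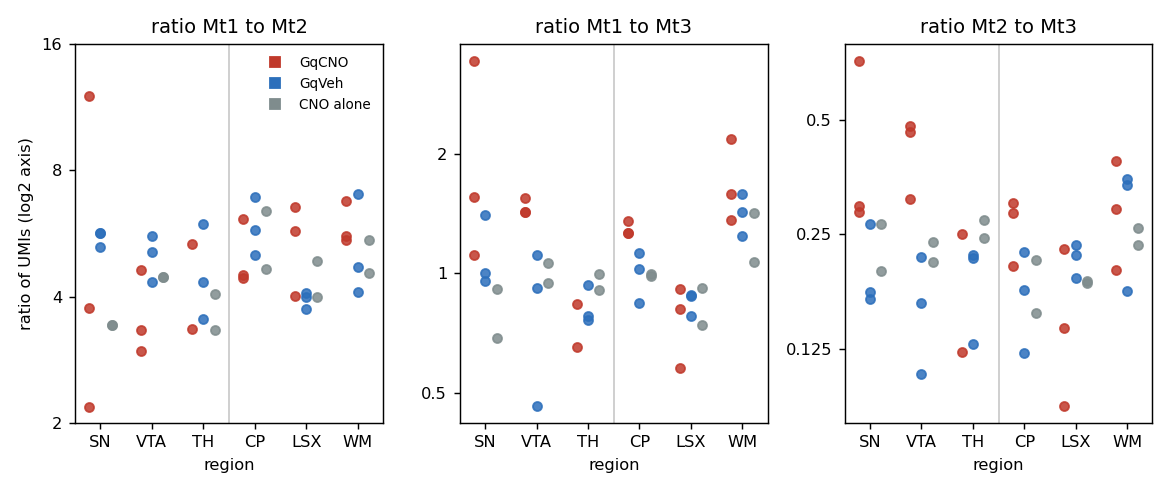
Ratio of UMIs of Mt1 to Mt2, Mt1 to Mt3 and Mt2 to Mt3 per mouse (log2 axes) in the 6 regions, coloured by group. GqCNO mice lie above all controls for Mt1 to Mt3 in the VTA and CP, and for Mt2 to Mt3 in the SN and VTA. The lowest GqCNO value for Mt2 to Mt3 in the SN rests on 2 UMIs of Mt2.

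Levels of the members moved together across mice in some regions. In the VTA, log2 levels of Mt1 and Mt2 had a Pearson r of 0.95 (exact permutation p = 0.000422, adjusted over 18 relations 0.00759) and a Spearman rho of 0.98 (exact permutation p = 0.000397, adjusted 0.00714). Without GqVeh 785 and GqCNO 781 the r was 0.82. GqCNO mice held the 3 highest values of both genes there, so that this relation includes the difference between groups, which could not be separated within groups of 3, 3 and 2 mice. In the CP the r of Mt1 and Mt2 was 0.73 (exact permutation p = 0.0409, adjusted 0.166), the rho was 0.74 (exact permutation p = 0.0458, adjusted 0.165), and r was 0.75 without C2W2 and GqVeh 802. Centred on the array pair, the CP value was 0.98. Mt1 and Mt3 in the TH had an r of 0.91 (exact permutation p = 0.00556, adjusted 0.05) and a rho of 0.93 (exact permutation p = 0.00675, adjusted 0.0607), which fell to an r of 0.40 without C2W2 and GqVeh 802 and so rested on these mice. Its adjusted p was not under 0.05, and Mt1 and Mt2 in the VTA were the only relation of the 18 that passed.

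Likeness over the 47 columns, after subtracting the mean of each region, was taken for 4781 other genes measured in all 6 regions. These columns share mice and arrays, and the values are a description. Mt2 was most like Mt1 (r = 0.72), then Rplp0 (0.70), a ribosomal protein, Npc2 (0.67), a lysosomal cholesterol carrier, Csf1r (0.63), the microglial growth factor receptor, and S100a6 (0.63), a calcium-binding protein. Mt1 was most like Rps23 (0.83), Apoe (0.82), Rps12 (0.82), Cst3 (0.81) and Dbi (0.80). Apoe is an apolipoprotein of astrocytes, Cst3 the protease inhibitor cystatin C, and Dbi an acyl-CoA-binding protein. Mt3 kept other company, with Mpc2 (0.81), a subunit of the mitochondrial pyruvate carrier, Cox5b (0.74), Uqcrq (0.71) and Ndufa7 (0.70) of the respiratory chain, and Rpl21 (0.70). Mt1 and Mt3 had an r of 0.52 and Mt2 and Mt3 an r of 0.39. The median r of 22 astrocyte markers was 0.21 with Mt1, 0.19 with Mt2 and 0.08 with Mt3, beside medians over all genes of -0.09, -0.04 and -0.03. Without that subtraction, the first 5 genes for Mt3 were Atp5e, Ndufc2, Atp5h, Atp5j and Ndufa13, all of mitochondrial energy metabolism, with r from 0.61 to 0.69. Those for Mt1 were Rps23, Rps12, Cst3, Apoe and Rpl26, from 0.81 to 0.83, and those for Mt2 were Mt1, Apoe, Dbi, Tmbim6 and Gfap, from 0.66 to 0.73.

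Genes of metal handling were looked at in the same fits without a block. Of 33 genes of zinc and copper transport and sensing, 14 were tested in the VTA and 25 in the CP, and none was called in either direction (medians -0.04 and 0.01, beside -0.06 and -0.00 over all genes). Smallest by p in the VTA were Commd1 (-0.84, adjusted p = 0.201), of copper handling, the zinc importer Slc39a4 (-0.76, adjusted p = 0.258) and the astrocytic zinc importer Slc39a12 (0.51, adjusted p = 0.536). In the CP they were the copper importer Slc31a1 (-0.22), and the zinc exporters Slc30a6 (-0.18) and Slc30a4 (0.21), each with an adjusted p of 0.999.

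Of 20 genes listed for their response to glucocorticoids, 1 of 7 tested rose in the VTA, where 1.2% of 6312 genes did. It was Sgk1 (1.59, adjusted p = 0.00899), a kinase, and the median of the list was 0.39. Next came Cdkn1a (0.52, adjusted p = 0.585), a cell cycle inhibitor, and Nr3c1 (0.40, adjusted p = 0.628), the glucocorticoid receptor, which unlike most of the list is generally lowered by its own ligand. In the CP none of 14 was called (median 0.20), as 0 of 10813 genes were. Tsc22d3 (0.63, adjusted p = 0.335), Gjb6 (0.57, adjusted p = 0.335), an astrocyte connexin, and Arrdc2 (0.46, adjusted p = 0.740) had the smallest p there. With the array pair as a block 3 of 14 were called, among them Tsc22d3 (adjusted p = 0.00402) and Gjb6 (adjusted p = 0.00383). In that fit 0.222% of 10813 genes were called higher.

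Of 24 genes of the NRF2 and glutathione defence against oxidants, 1 of 19 tested rose in the VTA, where 1.2% of 6312 genes did. It was Prdx6 (0.96, adjusted p = 0.0474), a peroxiredoxin of astrocytes. Sod2 (-0.73, adjusted p = 0.313), the mitochondrial superoxide dismutase, and Gstm5 (-0.58, adjusted p = 0.497) did not pass. In the CP none of 22 was called (median 0.04), as 0 of 10813 genes were. Prdx6 was at 0.23, Gsr, glutathione reductase, at -0.23 and Slc7a11, the cystine transporter, at 0.27, each with an adjusted p of 0.999. In the SN none of 14, 9 and 20 tested genes of the 3 lists was called, with medians of 0.18, 0.53 and 0.01 beside -0.08 over all genes. There 0.373% of 6174 genes were called higher.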

How the data were processed

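Gene expression was measured with Visium arrays (v1 chemistry) in midbrain and striatal sections of 8 mice on 4 arrays. The authors aligned and counted with Space Ranger on mm10 (version and annotation not given in the sources used here), chose discs in Loupe Browser and deposited a signal, the median-normalized average of each gene per region and mouse. The low values of every column (under 200 steps) were whole multiples of 1 step, 100% of them within 0.05 steps, so that UMIs were recovered. Arrays were normalized separately, and every column was rescaled to 10000. Intervals and the floor (3 UMIs, up to 3.86 per 10000 in the SN) cover counting error only.

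limma 3.58.1 (R 4.3.3) was fitted per region with a trend to log2(level + 0.5) in midbrain and log2(level + 0.05) in striatum, over genes with a mean of at least 0.25 or 0.05, with Benjamini-Hochberg adjustment and a threshold of 0.05. All 3 members passed that filter in all 6 regions. Fold changes of low genes are understated on this scale. The controls were weighted by mouse. Region comparisons used the 5 control mice with the mouse as a block, and exact permutation tests were two-sided. Alternatives were the values as deposited, TMM, added constants of 0.1 and 1 (midbrain) or 0.01 and 0.2 (striatum), no filter, the array pair as a block, edgeR 4.0.16 on UMIs, the methods' t-test, haemoglobin and mitochondria-encoded genes left out, and each mouse left out. On simulated counts for GqCNO against all controls, 2-fold changes of genes at a level of at least 2 were called for 36.4% of 11 genes in the SN (6109 genes), 68.8% of 16 in the VTA (6195 genes) and 100% of 8 in the CP (10793 genes). In each region 100 genes were changed 2-fold and 100 genes 6-fold, with the same fixed dispersion for all genes. The spread between the real mice was not fitted, so these shares do not give the power in the data. The members, the gene lists and the tests were chosen with earlier results of these data known. Named genes were the members, the 5 genes most like each member, and up to 3 tested genes with the smallest p from each pathway list in the CP and VTA. Markers were named where called, at 0 in all mice or, for Slc1a2 in the SN, next by p.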

Additional observations from a re-analysis of the deposited data

How the results depend on the processing

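The calls on Mt1, Mt2 and Mt3 in midbrain rested on few UMIs and few mice. Against all controls in the VTA, 1 member was called as reported, 0 with TMM scaling, with an added constant of 0.1 or without the filter on low values, and 2 when blocked by array pair or with edgeR, and leaving out single mice gave 0 to 2. In the SN 0 members were called against all controls, 1 with an added constant of 0.1, and 0 to 1 when single mice were left out. In the CP 0 were called, and 2 when blocked by array pair. Against GqVeh, 0 were called in the VTA, 1 with an added constant of 1, blocked by array pair or with edgeR, and 0 to 1 without single mice, and in the CP 0, or 2 when blocked by array pair. Against CNO alone, 1 was called in the SN, 0 with TMM scaling, edgeR or the methods' t-test and 0 to 1 without single mice, and in the VTA 0, or 1 with edgeR. Over all genes, 23 SN genes and 76 VTA genes were called higher, against 46 and 126 with edgeR, 14 and 65 with TMM scaling, 23 and 31 with an added constant of 0.1 and 23 and 6 without the filter. In the SN the counts of UMIs limit every value. Between regions of control mice, 1 member was called between the LSX and the WM, 2 over all mice and 1 to 2 without single mice, and 0 between the SN and the TH, 1 over all mice and 0 to 1 without single mice. Without the mouse as a block, the difference of Mt1 between the CP and the LSX was -0.45 with an adjusted p of 0.0676. Signs turned for differences that were not called. Mt3 in the SN was -0.26 with TMM scaling, -0.068 with edgeR and -0.33 per astrocyte markers, Mt3 in the VTA -0.31 per astrocyte markers, Mt3 in the CP 0.13 blocked by array pair, and Mt2 in the WM 0.040 per astrocyte markers. Mt2 between the VTA and the TH was 0.35 over all mice. Without single mice, Mt3 ranged from -0.14 to 0.35 in the SN, from -0.072 to 0.36 in the VTA and from -0.10 to 0.10 in the CP, Mt2 from -0.040 to 0.51 in the TH, from -0.58 to 0.024 in the LSX and from -0.28 to 0.071 in the WM, Mt1 from -0.019 to 0.24 in the LSX and from -0.037 to 0.67 in the CP against CNO alone, Mt2 between the LSX and the WM from -0.40 to 0.011 and between the VTA and the TH from -0.16 to 0.23. The cause of these changes was not tested. Of the recomputed differences of single members, 24 turned sign, 15 lost their call, 19 gained one and 595 kept direction and call, and of the recomputed counts of calls 29 moved by over 1.5 times and 328 did not. No paired analysis was possible because the groups hold different mice, whose numbers are names and not pairs.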
